A study of Mus musculus with 19 samples.

Results

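The genes described here carry metal ions across membranes or store them. They were chosen by symbol: every Slc30a gene (a family that moves zinc or manganese out of the cytosol), every Slc39a gene (a family that moves zinc and other divalent metals into the cytosol), and 18 further genes for metallothioneins and for iron, copper and magnesium handling. The rule found 42 of the 32694 gene symbols in the table: 10 Slc30a genes, 14 Slc39a genes, 2 metallothioneins, 9 iron genes, 4 copper genes and 3 magnesium genes. Of these, 39 reached a normalized count of 10 in at least 5 libraries and were tested among 18445 genes. Slc30a3, the zinc transporter of synaptic vesicles, Slc30a8, that of insulin granules, and Slc39a12, a brain zinc importer, did not, and their highest single values were 8.66, 2.17 and 3.42 normalized counts.

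Bulk poly-A RNA-seq was done on 19 colon samples, each from a different mouse of 12 weeks of age. Single tumours came from 7 mice labelled Apc/Tgif, 3 female and 4 male, in which Villin-Cre had removed 1 Apc allele and both alleles of Tgif1 and of Tgif2. Another 7 single tumours, also from 3 females and 4 males, came from mice with the same Villin-Cre deletion of 1 Apc allele and no Tgif deletion in their labels (Apc tumours). Normal colon came from 5 wild-type mice, 3 female and 2 male. Villin-Cre is a recombinase active in intestinal epithelium, so both tumour groups share the Apc deletion and the Cre, and tumour against wild-type colon compares both genotype and tissue. Values are the submitters' normalized counts, and the libraries totalled 34417808 to 44732717 of them.

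The label check was mixed. Tgif1 had 354 ± 137 in Apc/Tgif tumours and 3815 ± 803 in Apc tumours, against 964 ± 143 in wild-type colon (mean ± SD, n = 7, 7 and 5), while Tgif2 had 2657 ± 352 in Apc/Tgif tumours and 642 ± 92.1 in Apc tumours, against 161 ± 50.1 in wild-type colon, so over the whole gene Tgif2 was highest in the tumours labelled null for it. The labels do not say which exons the alleles lose, and the name Apc/Tgif tumour below follows the label. Several marker lists of 10 genes each, all present in the table, also moved with the groups. Summed pan-epithelial markers moved less, with 347564 to 441166 in Apc/Tgif tumours, 296433 to 542715 in Apc tumours and 464445 to 584566 in wild-type colon. Summed smooth muscle markers were 10316 to 19207 in Apc/Tgif tumours, 13463 to 23086 in Apc tumours and 206707 to 306998 in wild-type colon, and summed colonocyte markers were 7487 to 41382 in Apc/Tgif tumours, 18806 to 103329 in Apc tumours and 218939 to 273109 in wild-type colon. Of the 10 colonocyte markers 8 were called lower in each tumour group than in wild-type colon, while 1 was higher in Apc/Tgif tumours and 2 in Apc tumours. Defa17 was the 1 marker listed at 0 in a whole group, wild-type colon. In bulk RNA, fewer cells of a type and less RNA per cell cannot be told apart, and the part of cell makeup in the results below was not tested.

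Cells keep free metal ions scarce. Slc39a importers and Slc30a exporters set cytosolic zinc between them, metallothioneins bind what is in excess, and the factor MTF1 senses zinc and switches on the metallothionein genes and the exporter Slc30a1 through metal response elements. Gut epithelium takes up dietary iron through Slc11a2 at the lumen, stores it in ferritin and passes it to the blood through the exporter Slc40a1 with the oxidase Heph. The colon also takes up magnesium and is exposed to zinc, copper and manganese from the lumen.

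The windows just before the start of 4 genes are shown because among the textbook MTF1 targets Mt1, Mt2 and Slc30a1, Mt2 was higher and Slc30a1 lower in Apc tumours than in wild-type colon, and because Slc30a10 was among the members with the lowest tumour values. Each runs 5′ to 3′ over the 250 bases before the start in RefSeq on GRCm38.p6, with matches to the metal response element core in capitals (TGCACNC or TGCGCNC, searched on both strands).
Mt1 (chr8:94178839-94179088, plus strand): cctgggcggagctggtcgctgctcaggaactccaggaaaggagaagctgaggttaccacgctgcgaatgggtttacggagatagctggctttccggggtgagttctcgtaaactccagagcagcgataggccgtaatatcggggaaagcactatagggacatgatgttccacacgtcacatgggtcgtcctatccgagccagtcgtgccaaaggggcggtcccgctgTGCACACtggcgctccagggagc
Mt2 (chr8:94172368-94172617, plus strand): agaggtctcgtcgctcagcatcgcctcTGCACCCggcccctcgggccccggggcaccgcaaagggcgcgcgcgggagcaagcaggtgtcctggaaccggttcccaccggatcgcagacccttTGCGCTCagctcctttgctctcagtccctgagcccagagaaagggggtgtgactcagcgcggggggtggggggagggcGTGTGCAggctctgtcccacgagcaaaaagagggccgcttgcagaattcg
Slc30a1 (chr1:191906531-191906780, plus strand): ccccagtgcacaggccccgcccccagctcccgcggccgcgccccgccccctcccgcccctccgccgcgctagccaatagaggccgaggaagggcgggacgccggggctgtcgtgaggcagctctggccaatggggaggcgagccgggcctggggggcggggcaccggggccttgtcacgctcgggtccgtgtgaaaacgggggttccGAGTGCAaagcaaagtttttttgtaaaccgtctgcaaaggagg
Slc30a10 (chr1:185454598-185454847, plus strand): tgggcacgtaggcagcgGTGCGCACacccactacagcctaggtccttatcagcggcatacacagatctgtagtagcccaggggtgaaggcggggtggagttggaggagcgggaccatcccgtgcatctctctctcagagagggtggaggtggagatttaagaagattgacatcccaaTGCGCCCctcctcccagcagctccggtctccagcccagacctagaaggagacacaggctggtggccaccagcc
At least 1 such core was in 21.41% of 32851 windows of this length, at least 2 in 5.17% and at least 3 in 1.26%. Mt2 held 3, at 223, 128 and 50 bases before the start. The Slc30a10 window also counted 3, and 2 of these overlap on opposite strands. Mt1 and Slc30a1 held 1 each before the start, and the next 50 bases, not shown, held 2 more in Mt1, 1 more in Mt2 and 1 more in Slc30a1. A match is a run of letters, not evidence of binding, and RefSeq and GENCODE place some of these starts differently. Of the 34 members with a window in the table, 19 held a core, and 3 held a TCF/LEF core (CTTTGAA or CTTTGAT, both strands, in 7.48% of all windows). These are counts of members with a core in any window, and 7 members had 2 windows or more, while the shares are of single windows.

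**Figure D1:**
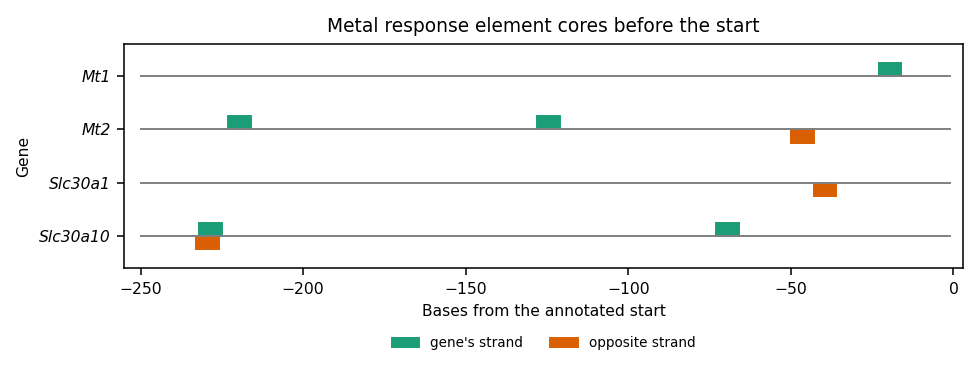
Position of metal response element cores in the 250 bases before the annotated start of 4 genes, in bases from the start (x axis), with matches on the strand of the gene above each line and matches on the opposite strand below it. Mt2 has 3 matches spread over the window, Slc30a10 has 2 overlapping matches far from the start and 1 nearer, and Mt1 and Slc30a1 have 1 each close to the start.

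Set against wild-type colon, 11 of the 39 tested members were called higher in Apc/Tgif tumours and 9 lower, at a limma adjusted p under 0.05 (Benjamini-Hochberg over all 18445 genes). Over all genes 24.8% were called higher and 25.5% lower. In Apc tumours 11 members were higher and 6 lower, against 23.9% and 25.2% of all genes. These 2 comparisons share the same 5 wild-type libraries, so their values are given side by side and not as separate evidence. Between the tumours, 1 member was higher and 6 were lower in the tumours labelled Apc/Tgif than in Apc tumours, against 7.88% and 8.76% of all genes. With library totals made equal the split of all genes shifted, to 31.5% higher and 20.8% lower in Apc/Tgif tumours and 33.4% and 18.5% in Apc tumours against wild-type colon, and to 1080 genes higher and 1849 lower of the 18445 between the tumours. The members then numbered 12 higher and 7 lower, 15 and 6, and 1 and 7 in the same order. Counted by a log2 fold change of at least 1 as well, 5 members were higher and 6 lower in Apc/Tgif tumours than in wild-type colon (10.8% and 15.8% of all genes), and 7 higher and 5 lower in Apc tumours (10.6% and 14.5%). The median log2 fold change of the tested members was -0.21, -0.10 and -0.14 in the 3 comparisons in that order, and 0.00, -0.01 and -0.01 over all genes tested. In either direction 20, 17 and 7 of the 39 members were called in that order, beside 9284, 9054 and 3068 of the 18445 genes. These shares were near each other. Split by direction they were less close for members lower in Apc tumours and for both directions between the tumours, which was not tested. Counts by family below stand beside the same shares of all genes, and what follows concerns which members were called.

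**Figure D2:**
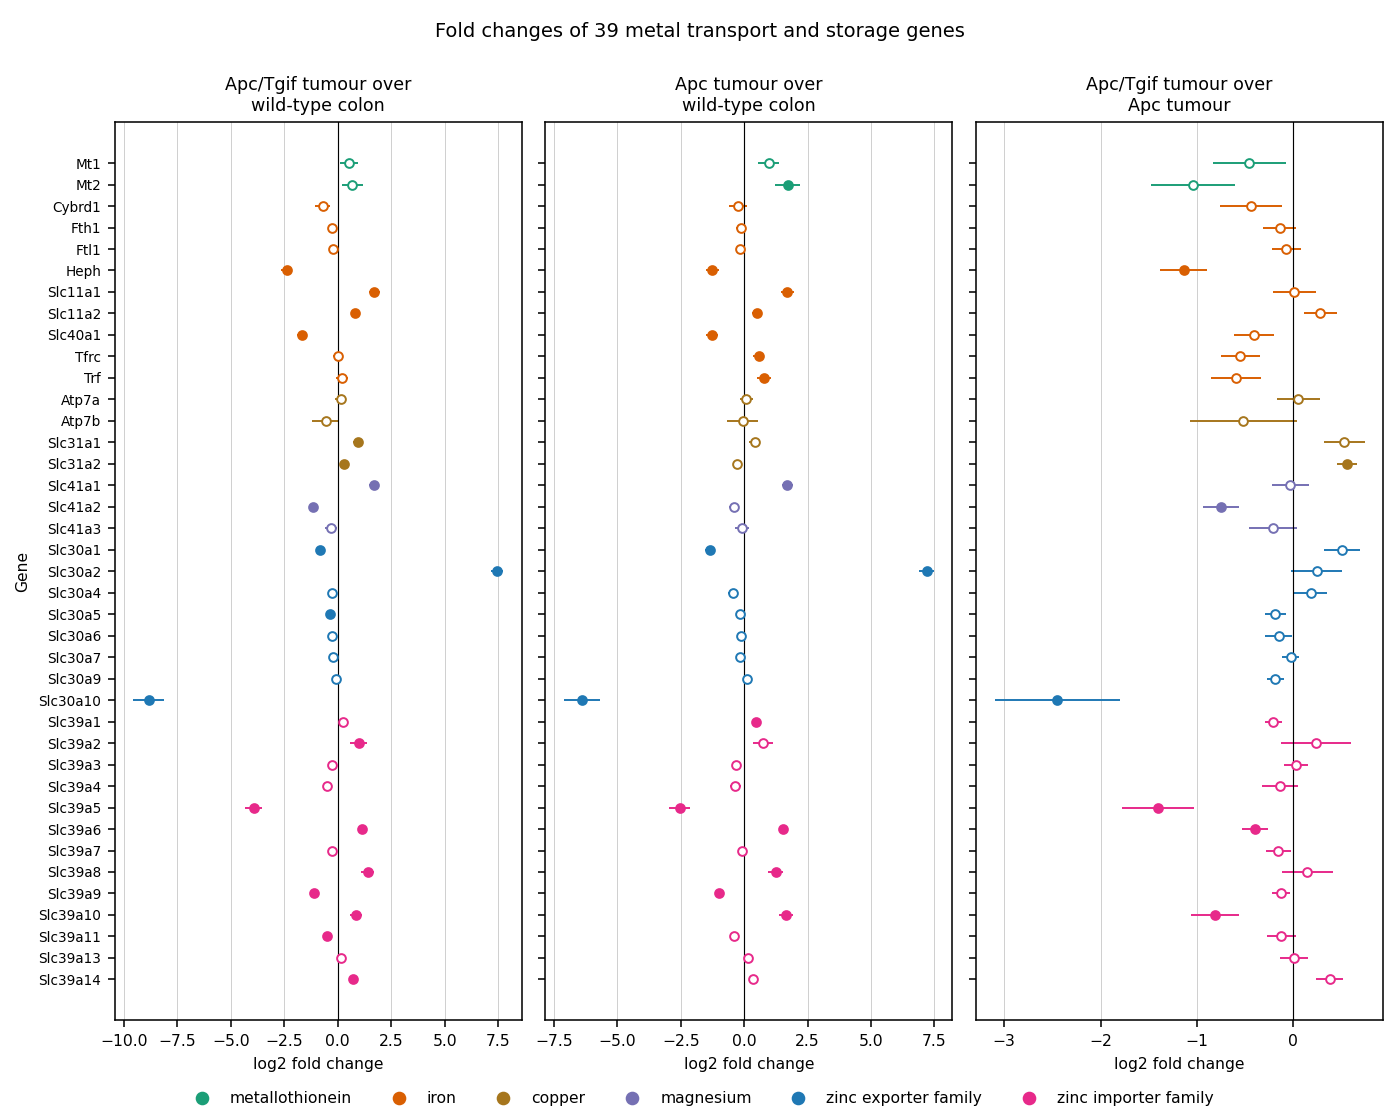
Log2 fold change of the 39 tested metal genes (x axis, log2(normalized count + 1) scale, bars show 1 SE of the fit) for Apc/Tgif tumours over wild-type colon, Apc tumours over wild-type colon and Apc/Tgif over Apc tumours, coloured by role, with filled points where the limma adjusted p was under 0.05. The x axes differ between panels. Slc30a2 at 7.44 and 7.20 and Slc30a10 at -8.84 and -6.39 lie farthest from 0 in the comparisons with wild-type colon, and most points between the tumours lie within 1 of 0.

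The zinc exporter family held both the highest and the lowest fold change of the members. Slc30a2 (ZnT2; chromosome 4, 134343181 to 134354484, plus strand) loads zinc into vesicles and is known from mammary gland and from the granules of Paneth cells. Its normalized counts were 2076 to 5561 with a median of 5203 in Apc/Tgif tumours and 1858 to 6167 with a median of 4247 in Apc tumours, against 35.4, 46.8, 17.4, 21.6 and 19.4 in wild-type colon. No tumour library overlapped a wild-type one. Slc30a2 rose by 7.44 (SE 0.291, limma adjusted p = 5.15e-13) in Apc/Tgif tumours and by 7.20 (SE 0.291, limma adjusted p = 1.30e-12) in Apc tumours on the log2 scale. The tumour groups differed by 0.24 (SE 0.263, limma adjusted p = 0.6), with a 95% interval of -0.31 to 0.79. Summed Paneth cell markers were 62858 to 186307 in Apc/Tgif tumours, 36511 to 218878 in Apc tumours and 16839 to 32878 in wild-type colon, and 8 of the 10 were higher in each tumour group than in wild-type colon, with 1 lower in Apc/Tgif tumours. Over all genes 14.1% were higher in Apc/Tgif tumours than in wild-type colon with no overlap and 16.5% lower, and 14.0% and 15.4% in Apc tumours. Of the 39 tested members, 6 and 6 did so in Apc/Tgif tumours and 8 and 6 in Apc tumours.

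Slc30a10 (chromosome 1, 185454848 to 185468762, plus strand), which exports manganese despite its family, went the other way. Values were 0 to 9.84 with a median of 1.09 in Apc/Tgif tumours and 1.71 to 59.6 with a median of 9.01 in Apc tumours, against 1666, 772, 2161, 723 and 457 in wild-type colon. It was listed at 0 in 3 of 7 Apc/Tgif tumours, and every tumour library lay below every wild-type one. Slc30a10 fell by 8.84 (SE 0.720, limma adjusted p = 8.24e-09) in Apc/Tgif tumours, while in Apc tumours it fell by 6.39 (SE 0.720, limma adjusted p = 7.19e-07), against wild-type colon. Apc/Tgif tumours were also lower than Apc tumours, with a log2 fold change of -2.45 (SE 0.652, limma adjusted p = 0.0138), where the groups overlapped. Most of those values are a few counts, and the difference between the tumours was -1.12 with an adjusted p of 0.066 by limma when 8 in place of 1 was added before the log. It also missed the threshold with a quality weight per library and in females alone (adjusted p of 0.059 and 0.0761 by limma). Slc30a10 was called lower than in wild-type colon under all 32 alternative settings in both comparisons, with the largest adjusted p 0.000253 and 0.00703.

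Slc30a1 (ZnT1; chromosome 1, 191906767 to 191913247, plus strand), the zinc exporter of the cell surface, had values of 869.5 to 2423 with a median of 1079 in Apc/Tgif tumours and 629 to 1076 with a median of 867 in Apc tumours, against 2330.4, 2204, 1847, 2220.1 and 1888 in wild-type colon. All 7 Apc tumours lay below the wild-type range, while 1 Apc/Tgif tumour reached above it. Slc30a1 fell by 0.83 (SE 0.206, limma adjusted p = 0.00225) in Apc/Tgif tumours, while in Apc tumours it fell by 1.34 (SE 0.206, limma adjusted p = 2.65e-05), and in females alone the Apc/Tgif value was -0.71 (limma adjusted p = 0.108). Between the tumours the log2 fold change was 0.51 (SE 0.186, limma adjusted p = 0.0711), it was 0.31 (limma adjusted p = 0.0847) without Apc/Tgif 2, and it passed the threshold without Apc/Tgif 1 or Apc/Tgif 5 (limma adjusted p = 0.0376 to 0.0498). Of the exporters that work in the Golgi and secretory pathway, Slc30a5 was lower in Apc/Tgif tumours than in wild-type colon, with a log2 fold change of -0.36 (SE 0.119, limma adjusted p = 0.0165), and Slc30a4, Slc30a6 and Slc30a7 passed the threshold in no comparison, nor did Slc30a9. Mean normalized counts of Slc30a5 were 2141 ± 388 in Apc/Tgif tumours and 2413 ± 229.6 in Apc tumours, against 2704 ± 169.8 in wild-type colon (± SD). For Slc30a4, which loads zinc into vesicles, they were 3383 ± 841 in Apc/Tgif tumours and 3002 ± 849.6 in Apc tumours, against 4062 ± 856 in wild-type colon. For Slc30a7 they were 2830.2 ± 294 in Apc/Tgif tumours and 2871 ± 168 in Apc tumours, against 3283 ± 420.2 in wild-type colon. For Slc30a9, a mitochondrial zinc transporter, they were 2523 ± 271 in Apc/Tgif tumours and 2875 ± 339 in Apc tumours, against 2665 ± 121 in wild-type colon. Slc30a4 passed the threshold in Apc tumours without WT 4, Apc 4 or Apc/Tgif 2 (limma adjusted p = 0.00881 to 0.0402), with values below those of wild-type colon. Against wild-type colon Slc30a7 passed without WT 4 (limma adjusted p = 0.0288) in Apc/Tgif tumours and without WT 4 (limma adjusted p = 0.0458) in Apc tumours, and Slc30a6 passed in Apc/Tgif tumours without Apc/Tgif 5 (limma adjusted p = 0.0468). In all, 1 of 8 tested exporters rose and 3 fell in Apc/Tgif tumours, and 1 rose and 2 fell in Apc tumours. With library totals made equal the value of Slc30a5 was -0.21 and its adjusted p by limma 0.152, and in males alone it was -0.26 (limma adjusted p = 0.157).

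**Figure D3:**
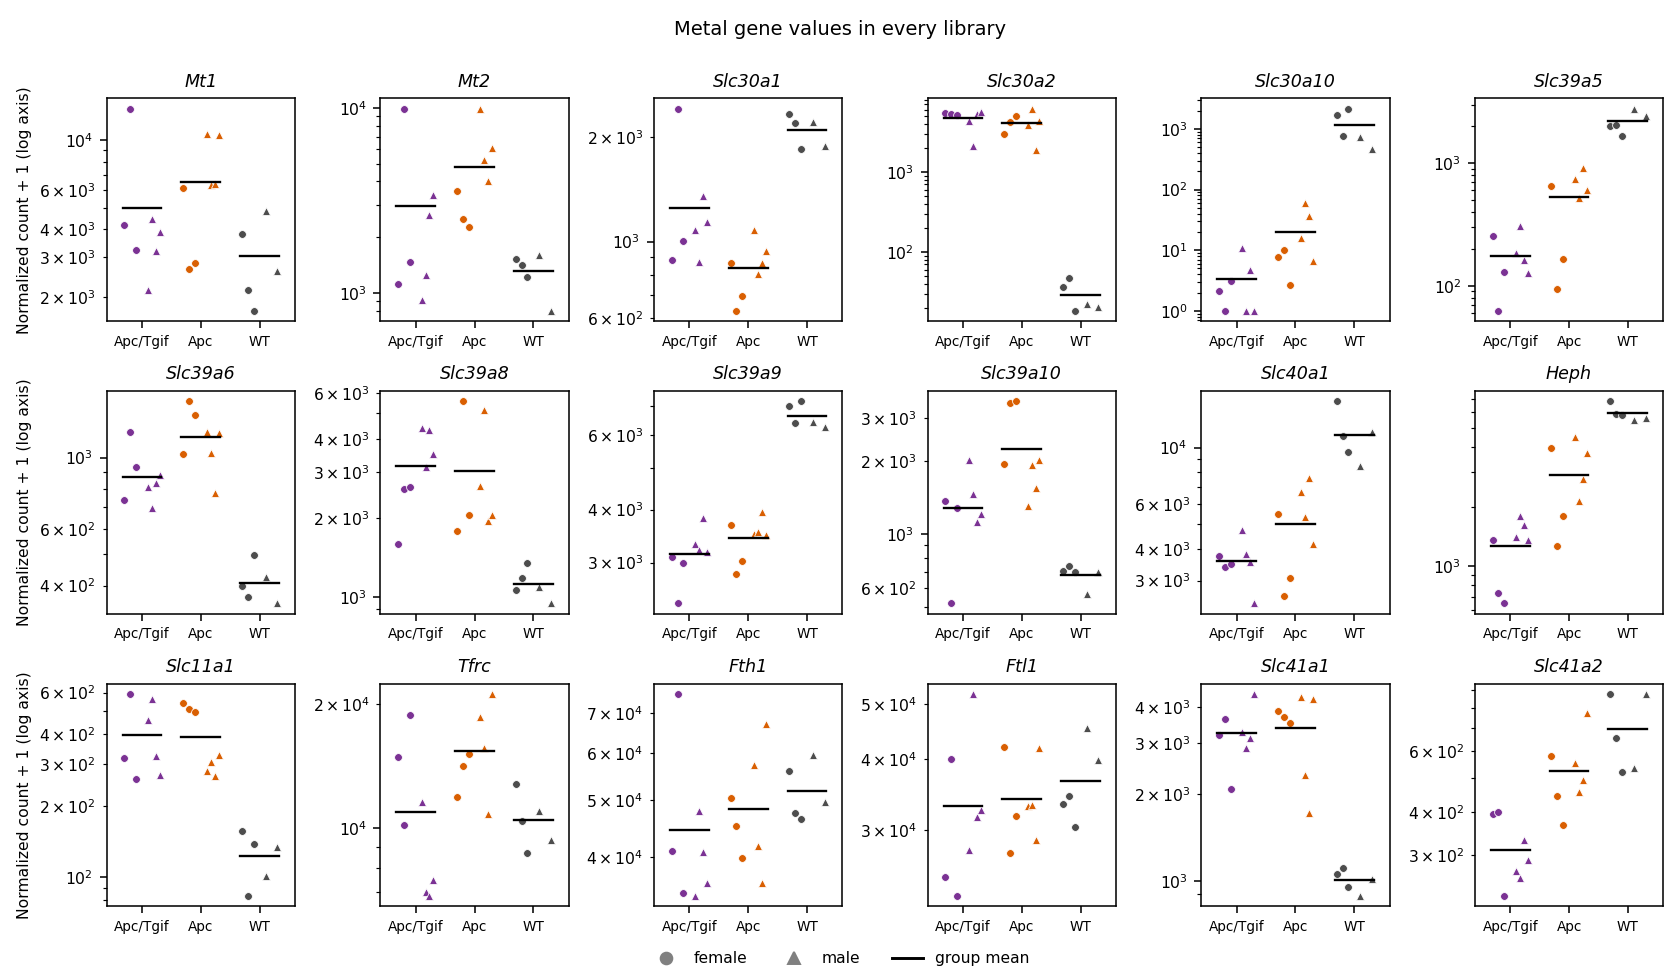
Normalized count plus 1 (log axis, own range in each panel) of 18 metal genes in every library of Apc/Tgif tumours, Apc tumours and wild-type colon, with circles for females, triangles for males and a line at the group mean. Slc30a2, Slc39a6, Slc39a8, Slc11a1 and Slc41a1 show both tumour groups above wild-type colon without overlap. Slc30a10, Slc39a5, Slc39a9, Slc40a1 and Heph show both tumour groups below it, and Fth1 and Ftl1 overlap throughout.

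Of the 13 tested zinc importers, 5 rose and 3 fell in Apc/Tgif tumours, and 4 rose and 2 fell in Apc tumours, against wild-type colon. Slc39a6, Slc39a8 and Slc39a10 rose in both tumour groups, and Slc39a5 and Slc39a9 fell in both. Slc39a10 (chromosome 1, 46807544 to 46892852, minus strand), a zinc importer of the cell surface, had values of 517 to 2020.3 with a median of 1275 in Apc/Tgif tumours and 1307 to 3515 with a median of 1937 in Apc tumours, against 701, 739.6, 697, 563 and 700.3 in wild-type colon. Apc tumours lay wholly above wild-type colon, and 1 Apc/Tgif tumour lay below it. The log2 fold change was 0.85 (SE 0.278, limma adjusted p = 0.0159) in Apc/Tgif tumours and 1.66 (SE 0.278, limma adjusted p = 6.63e-05) in Apc tumours. Apc/Tgif tumours were lower than Apc tumours, with a log2 fold change of -0.81 (SE 0.251, limma adjusted p = 0.0319). In females alone the Apc/Tgif value against wild-type colon was 0.44 (limma adjusted p = 0.348). The call between the tumours was lost with only those groups fitted (limma adjusted p = 0.0748), in males alone (-0.24, limma adjusted p = 0.448) and without Apc 2, Apc 3, Apc 7, Apc/Tgif 3 or Apc/Tgif 6 (limma adjusted p = 0.0508 to 0.075).

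Slc39a6 (LIV-1; chromosome 18, 24579881 to 24603817, minus strand), known as an oestrogen-regulated zinc importer, had values of 696 to 1195 with a median of 832 in Apc/Tgif tumours and 774 to 1495 with a median of 1192 in Apc tumours, against 397, 366, 496, 424 and 351 in wild-type colon. Both tumour groups lay above every wild-type library. Slc39a6 rose by 1.12 (SE 0.148, limma adjusted p = 3.54e-06) in Apc/Tgif tumours and 1.52 (SE 0.148, limma adjusted p = 1.19e-07) in Apc tumours. Between the tumours the difference was -0.40 (SE 0.134, limma adjusted p = 0.0471), a call kept in 11 of 32 alternatives and lost without WT 1, WT 2, WT 3, WT 5, Apc 2, Apc 3, Apc 4, Apc 5, Apc 7, Apc/Tgif 1, Apc/Tgif 3, Apc/Tgif 4, Apc/Tgif 5, Apc/Tgif 6 or Apc/Tgif 7 (limma adjusted p = 0.0506 to 0.103). Slc39a8 (chromosome 3, 135825279 to 135888572, plus strand), which carries zinc, manganese and iron, had values of 1594 to 4414 with a median of 3115 in Apc/Tgif tumours and 1779 to 5567 with a median of 2051 in Apc tumours, against 1062, 1176, 1346, 1087 and 944 in wild-type colon. It too had no overlap with wild-type colon in either group. The rises were 1.39 (SE 0.289, limma adjusted p = 0.000496) in Apc/Tgif tumours and 1.25 (SE 0.289, limma adjusted p = 0.00145) in Apc tumours, and in females alone the Apc/Tgif value was 0.89 (limma adjusted p = 0.0877).

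Slc39a5 (chromosome 10, 128395931 to 128401229, minus strand), a zinc transporter of the basolateral side of intestinal cells, was the importer with the largest fold change. Values were 61.4 to 305 with a median of 159.9 in Apc/Tgif tumours and 92.4 to 916 with a median of 603 in Apc tumours, against 2004, 2059, 1663, 2783 and 2413 in wild-type colon. The tumours lay below all 5 wild-type libraries in both groups, and no Apc/Tgif tumour exceeded the Apc tumour median. Slc39a5 fell by 3.94 (SE 0.415, limma adjusted p = 2.23e-07) in Apc/Tgif tumours, while in Apc tumours it fell by 2.53 (SE 0.415, limma adjusted p = 5.36e-05). Apc/Tgif tumours were lower than Apc tumours, with a log2 fold change of -1.40 (SE 0.376, limma adjusted p = 0.0144), and in females alone the value was -0.76 with an adjusted p of 0.434 by limma. Slc39a9 (chromosome 12, 80643883 to 80683342, plus strand), a Golgi zinc transporter, had a smaller change with little spread. Its values were 2402 to 3819 with a median of 3177 in Apc/Tgif tumours and 2816 to 3940.4 with a median of 3503 in Apc tumours, against 7031, 6381, 7199, 6418 and 6265 in wild-type colon. No tumour reached the wild-type range, and Slc39a9 fell by 1.12 (SE 0.10, limma adjusted p = 2.73e-08) in Apc/Tgif tumours, while in Apc tumours it fell by 0.99 (SE 0.10, limma adjusted p = 2.00e-07).

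Smaller changes were called in 4 further importers, each in a single tumour group against wild-type colon. The other tumour group had the same sign but missed the threshold (limma adjusted p = 0.0537 to 0.128). Its log2 fold change was 0.36 for Slc39a14, -0.40 for Slc39a11 and 0.75 for Slc39a2 in Apc tumours, and 0.24 for Slc39a1 in Apc/Tgif tumours. None of the 4 was called between the tumours. Slc39a14, a carrier of zinc, iron and manganese, averaged 2390.4 ± 833 in Apc/Tgif tumours and 1763 ± 203 in Apc tumours, against 1473 ± 346 in wild-type colon (mean ± SD), with a log2 fold change of 0.73 (SE 0.158, limma adjusted p = 0.000722) in Apc/Tgif tumours. Slc39a11 averaged 2155 ± 407 in Apc/Tgif tumours and 2412 ± 719.6 in Apc tumours, against 2977 ± 247 in wild-type colon, with a log2 fold change of -0.52 (SE 0.169, limma adjusted p = 0.0147) in Apc/Tgif tumours that missed the threshold with equal library totals (limma adjusted p = 0.0572), in females alone (0.128) and in males alone (0.0762). Slc39a1, a zinc importer of the cell surface, averaged 5571 ± 705 in Apc/Tgif tumours and 6419 ± 694 in Apc tumours, against 4668 ± 289 in wild-type colon, with a log2 fold change of 0.45 (SE 0.102, limma adjusted p = 0.00118) in Apc tumours that was 0.45 (limma adjusted p = 0.0553) in males alone. Slc39a2 averaged 77.0 ± 30.1 in Apc/Tgif tumours and 77.2 ± 77.0 in Apc tumours, against 34.4 ± 15.0 in wild-type colon, with a log2 fold change of 0.98 (SE 0.399, limma adjusted p = 0.0473) in Apc/Tgif tumours. The Slc39a2 call was kept in 13 of 32 alternatives and lost without WT 1, WT 2, WT 3, WT 4, Apc 1, Apc 2, Apc 3, Apc 5, Apc/Tgif 1, Apc/Tgif 3, Apc/Tgif 4, Apc/Tgif 5 or Apc/Tgif 6 (limma adjusted p = 0.051 to 0.119). Slc39a1 shares 27.69% of its 31-base stretches with other genes, mostly its own pseudogene, and Slc39a7 shares 76.79% with the overlapping transcript Gm20427, so the values of both depend on how reads were shared out. Slc39a4 (chromosome 15, 76612383 to 76617384, minus strand), the luminal importer of dietary zinc, had 3988 to 7632 in Apc/Tgif tumours and 4088 to 10385 in Apc tumours, against 6480.2 to 9391 in wild-type colon. It passed the threshold in no comparison, with a log2 fold change of -0.49 (SE 0.208, limma adjusted p = 0.0566) in Apc/Tgif tumours and -0.35 (SE 0.208, limma adjusted p = 0.171) in Apc tumours against wild-type colon. The Apc/Tgif value of Slc39a4 passed the threshold without Apc 4, Apc 7 or Apc/Tgif 1 (limma adjusted p = 0.0207 to 0.0404). Slc39a3, Slc39a7 and Slc39a13 passed in no comparison either, with log2 fold changes of -0.32 to 0.15 over the 3 comparisons. Slc39a7, which releases zinc from the endoplasmic reticulum, averaged 3799.9 ± 655 in Apc/Tgif tumours and 4239 ± 748 in Apc tumours, against 4481 ± 586 in wild-type colon. Slc39a3 averaged 864 ± 124 in Apc/Tgif tumours and 851 ± 156 in Apc tumours, against 1043 ± 49.6 in wild-type colon. Slc39a13 averaged 526 ± 126 in Apc/Tgif tumours and 514 ± 73.9 in Apc tumours, against 458 ± 42.3 in wild-type colon. Against wild-type colon Slc39a3 passed the threshold without Apc 4 or Apc/Tgif 5 (limma adjusted p = 0.0398 to 0.0461) in Apc/Tgif tumours and without Apc 1, Apc 5, Apc 6 or Apc/Tgif 7 (limma adjusted p = 0.0354 to 0.0499) in Apc tumours.

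Mt1 (chromosome 8, 94179082 to 94180327, plus strand) and Mt2 (chromosome 8, 94172664 to 94173568, plus strand) encode the widely expressed metallothioneins. Mt2 had values of 917 to 9911 with a median of 1469.8 in Apc/Tgif tumours and 2280.4 to 9909.8 with a median of 4030.3 in Apc tumours, against 1527, 1406, 1220.5, 1598 and 797 in wild-type colon. All 7 Apc tumours lay above the wild-type range, while Apc/Tgif tumours ran from inside it to the level of the highest Apc tumour. Mt2 rose in Apc tumours by 1.72 (SE 0.486, limma adjusted p = 0.0066), though in females alone its value was 0.99 (limma adjusted p = 0.26). The log2 fold change in Apc/Tgif tumours was 0.68 (SE 0.486, limma adjusted p = 0.26), and it was 0.19 (limma adjusted p = 0.679) without Apc/Tgif 2 and 0.44 (limma adjusted p = 0.521) without WT 5. Between the tumours it was -1.04 (SE 0.440, limma adjusted p = 0.118). That value depended on 1 library: without Apc/Tgif 2, whose 9911 stood far above the rest of its group, the difference was -1.47 with a limma adjusted p of 0.00405.

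Mt1 values were 2159.6 to 13765 with a median of 3911 in Apc/Tgif tumours and 2671 to 10656 with a median of 6270.4 in Apc tumours, against 3811, 2156, 1736, 4844 and 2614 in wild-type colon, and the groups overlapped in every comparison. The log2 fold changes of Mt1 were 0.52 (SE 0.415, limma adjusted p = 0.318) in Apc/Tgif tumours and 0.97 (SE 0.415, limma adjusted p = 0.0599) in Apc tumours against wild-type colon, and the Apc tumour difference passed the threshold in 11 of 32 alternatives, among them the omission of WT 4, Apc 2, Apc 3 or Apc/Tgif 2 (limma adjusted p = 0.0173 to 0.0455). The Apc/Tgif value against wild-type colon was 0.12 (limma adjusted p = 0.769) without Apc/Tgif 2. Between the tumours Mt1 was -0.46 (SE 0.376, limma adjusted p = 0.466), with a 95% interval of -1.24 to 0.33, and it was -0.80 (limma adjusted p = 0.0677) without Apc/Tgif 2 and -0.27 (limma adjusted p = 0.696) without Apc/Tgif 4. The exons of Mt2 overlap the antisense gene Gm45774 over 73.5% of their length, and no source used here says whether the counting was stranded.

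In Apc tumours the 4 males exceeded the 3 females in both metallothionein genes. Mt1 had 6270.4 to 10656 in males and 2671 to 6126 in females, and Mt2 had 4030.3 to 9909.8 in males and 2280.4 to 3566 in females. Because the sexes did not overlap and each held 3 or 4 libraries, no correlation of the pair is given. This separation of the sexes was not tested, and the share of all genes with it was not counted. It also occurred in other members, such as Slc11a1 in Apc tumours, with 498 to 543 in females and 265 to 327 in males.

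**Figure D4:**
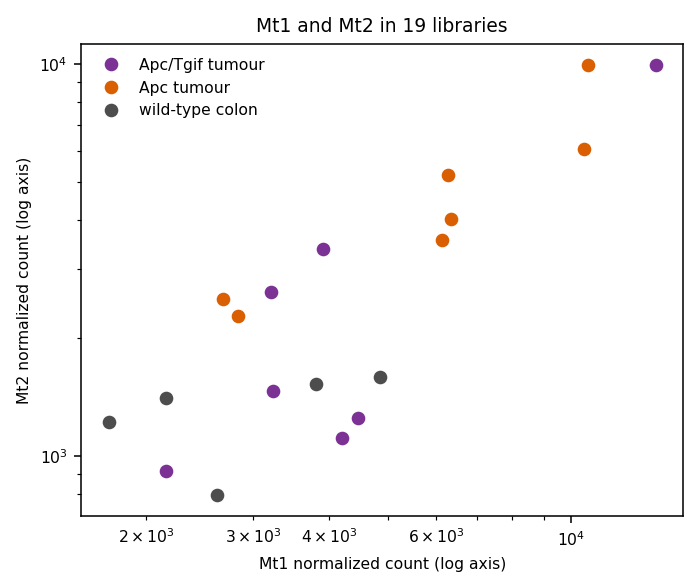
Normalized counts of Mt2 (y, log axis) against Mt1 (x, log axis) in 19 libraries, coloured by Apc/Tgif tumour, Apc tumour and wild-type colon. The Apc tumours run from low to high on both axes, 6 of the 7 Apc/Tgif tumours stay at or below 3372 on the y axis and 1 stands at 9911, and the wild-type libraries lie between 797 and 1598 on it.

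The other metallothionein genes of the same cluster, which are not members of the set, had larger changes. Mt3, known from brain, is at chromosome 8, 94152607 to 94154146, plus strand, and Mt4, known from squamous epithelium, at chromosome 8, 94137197 to 94139031, plus strand. Mt3 ranged over 429.6 to 2177 in Apc/Tgif tumours and 589.8 to 5519 in Apc tumours, against 30.3 to 81.9 in wild-type colon. It rose by 4.69 (SE 0.489, limma adjusted p = 2.08e-07) in Apc/Tgif tumours and 5.31 (SE 0.489, limma adjusted p = 6.69e-08) in Apc tumours. Mt4 ranged over 238 to 1933 in Apc/Tgif tumours and 231 to 6709 in Apc tumours, against 0 to 14.4 in wild-type colon. Its rises were 7.86 (SE 0.769, limma adjusted p = 9.07e-08) and 7.98 (SE 0.769, limma adjusted p = 1.17e-07) in the same order, and neither gene overlapped between tumours and wild-type colon. Neither shares a 31-base stretch with another gene.

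Of the 9 iron genes, 2 rose and 2 fell in Apc/Tgif tumours, and 4 rose and 2 fell in Apc tumours, against wild-type colon. Heph and Slc40a1 were the 2 that fell in each. Heph (chromosome X, 96455359 to 96574485, plus strand), the multicopper oxidase that works with the exporter, had values of 646 to 1784 with a median of 1359 in Apc/Tgif tumours and 1267 to 4489.7 with a median of 2746 in Apc tumours, against 6824, 5880.1, 5818, 5492 and 5604 in wild-type colon. Each tumour library lay below each wild-type one. Heph fell by 2.39 (SE 0.265, limma adjusted p = 4.14e-07) in Apc/Tgif tumours, while in Apc tumours it fell by 1.25 (SE 0.265, limma adjusted p = 0.000682). It was also lower in Apc/Tgif than in Apc tumours, with a log2 fold change of -1.14 (SE 0.240, limma adjusted p = 0.00287) and overlapping groups, and all 3 calls held in 32 of 32 alternatives, with the Apc tumour value against wild-type colon at -0.82 (limma adjusted p = 0.0305) in males alone. Slc40a1 (ferroportin; chromosome 1, 45908068 to 45926523, minus strand), the iron exporter, had values of 2437 to 4726 with a median of 3557 in Apc/Tgif tumours and 2612 to 7615 with a median of 5318 in Apc tumours, against 15231, 11107, 9628, 8497 and 11565 in wild-type colon. It did not overlap between tumours and wild-type colon, and it fell by 1.67 (SE 0.229, limma adjusted p = 5.53e-06) in Apc/Tgif tumours, while in Apc tumours it fell by 1.26 (SE 0.229, limma adjusted p = 0.00015). In males alone the Apc tumour value was -0.77 (limma adjusted p = 0.0581). The difference between the tumours was -0.40 (SE 0.207, limma adjusted p = 0.205).

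Slc11a2 (DMT1), the luminal iron importer, had 3437 ± 798 in Apc/Tgif tumours and 2818 ± 577 in Apc tumours, against 2003 ± 501 in wild-type colon (mean ± SD) and rose by 0.80 (SE 0.187, limma adjusted p = 0.00148) in Apc/Tgif tumours. In Apc tumours its rise was 0.51 (SE 0.187, limma adjusted p = 0.0282), a call lost without WT 2, WT 4, WT 5 or Apc 4 (limma adjusted p = 0.053 to 0.0846) and in females alone, where it was 0.14 (limma adjusted p = 0.642). Slc11a1 (chromosome 1, 74375195 to 74386062, plus strand), the metal transporter of phagosomes in macrophages and neutrophils, had values of 259.6 to 592 with a median of 324 in Apc/Tgif tumours and 265 to 543 with a median of 327 in Apc tumours, against 155, 82.2, 137, 101 and 133 in wild-type colon. Tumours and wild-type colon did not overlap. Slc11a1 rose by 1.71 (SE 0.249, limma adjusted p = 1.15e-05) in Apc/Tgif tumours and 1.70 (SE 0.249, limma adjusted p = 1.57e-05) in Apc tumours. Beside it, summed macrophage markers were 14468 to 23432 in Apc/Tgif tumours, 11101 to 23713 in Apc tumours and 9766 to 15561 in wild-type colon. Of these 10 markers 6 were called higher and 1 lower in Apc/Tgif tumours, and 1 higher and 0 lower in Apc tumours. Summed neutrophil markers were 4739 to 18357 in Apc/Tgif tumours, 13452 to 22461 in Apc tumours and 4452 to 9522 in wild-type colon, and 9 of the 10 were higher and 1 lower in each tumour group. Their part in the higher Slc11a1 was not tested.

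Tfrc (chromosome 16, 32608920 to 32632794, plus strand), the receptor that takes up iron-loaded transferrin, had values of 6832 to 18786 with a median of 10167 in Apc/Tgif tumours and 10789 to 21174 with a median of 15154 in Apc tumours, against 12774, 10386, 8709.9, 11019 and 9359.5 in wild-type colon. All pairs of groups overlapped. The log2 fold change of Tfrc was 0.02 (SE 0.226, limma adjusted p = 0.945) in Apc/Tgif tumours and 0.57 (SE 0.226, limma adjusted p = 0.0433) in Apc tumours. The Apc tumour call held in 20 of 32 alternatives and was lost without WT 2, WT 3, WT 5, Apc 3, Apc 4, Apc 5 or Apc 7 (limma adjusted p = 0.0538 to 0.104). It was also lost in females alone (0.199) and in males alone (0.091), by the same test. Trf, transferrin itself, had 4626 ± 2554 in Apc/Tgif tumours and 6603 ± 2355 in Apc tumours, against 3678 ± 665 in wild-type colon and rose by 0.78 (SE 0.288, limma adjusted p = 0.03) in Apc tumours, a call lost without WT 2, WT 4, WT 5, Apc 3 or Apc 7 (limma adjusted p = 0.053 to 0.0742) and in males alone (0.251). Trf shares 63.8% of its 31-base stretches, chiefly with the overlapping gene Gm20425. Between the tumours the log2 fold change was -0.55 (SE 0.205, limma adjusted p = 0.074) for Tfrc, which passed the threshold without Apc/Tgif 3 (limma adjusted p = 0.0213). It was -0.59 (SE 0.260, limma adjusted p = 0.135) for Trf, which passed without Apc/Tgif 5 (limma adjusted p = 0.0143).

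Ferritin had the highest levels of the set and passed the threshold in no comparison. Fth1 (chromosome 19, 9980598 to 9985098, plus strand), the heavy chain, had values of 34385 to 75496 with a median of 40875 in Apc/Tgif tumours and 36196 to 67044 with a median of 45166 in Apc tumours, against 55951, 47579, 46339, 59529 and 49579.6 in wild-type colon. Ftl1 (chromosome 7, 45457944 to 45459884, minus strand), the light chain, had values of 23001 to 52105 with a median of 31686 in Apc/Tgif tumours and 27380.5 to 42025 with a median of 33059.7 in Apc tumours, against 33355, 34517, 30374, 45289 and 39857 in wild-type colon. The groups overlapped in each comparison of both genes. The 95% interval of the log2 fold change against wild-type colon was -0.65 to 0.12 in Apc/Tgif tumours and -0.51 to 0.27 in Apc tumours for Fth1, and -0.57 to 0.13 and -0.50 to 0.21 for Ftl1. Without Apc/Tgif 2, the highest of its group, Fth1 was -0.43 in Apc/Tgif tumours with a limma adjusted p of 0.0185. Ftl1 shares 57.74% of its 31-base stretches, mostly with ferritin pseudogenes. Cybrd1, the luminal iron reductase, had 168 ± 64.2 in Apc/Tgif tumours and 277 ± 258 in Apc tumours, against 242 ± 64.3 in wild-type colon and passed in no comparison, except that its Apc/Tgif value did so against wild-type colon without Apc 4 (limma adjusted p = 0.0389).

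Per kilobase of exon, with exons joined over all annotated transcripts of a gene, Ftl1 led every group, with 24748 ± 7528 normalized counts per kilobase in Apc/Tgif tumours, 25403 ± 4348 in Apc tumours and 27372 ± 4410.3 in wild-type colon (mean ± SD). Fth1 came next, with 12796 ± 4181, 13907 ± 3128 and 14931 ± 1640.5 in the same order of groups. In Apc tumours Mt2 at 8161 ± 4478 and Mt1 at 5206 ± 2573 followed, 2 levels closer than their spread. In wild-type colon the next levels were Slc39a4 at 2503 ± 380.0, Mt1 at 2433 ± 1024, Mt2 at 2227 ± 544 and Slc31a1 at 2019.7 ± 224, and neighbours in this order differed by less than their SDs. The joined length, which can exceed that of 1 transcript, is 1.34 kilobases for Ftl1, 3.469 for Fth1, 0.588 for Mt2 and 1.246 for Mt1. Mean counts not divided by length were higher for Fth1 than Ftl1 and for Mt1 than Mt2 in each group. The order of Ftl1 over Fth1, and of Mt2 over Mt1 in Apc tumours, thus depends on that length.

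Of the 4 copper genes, Slc31a2 was the 1 member of the set called higher in Apc/Tgif than in Apc tumours. Slc31a1 (CTR1), the copper importer, had 16776 ± 3811 in Apc/Tgif tumours and 12144 ± 4539 in Apc tumours, against 8645 ± 959 in wild-type colon (mean ± SD). It rose by 0.94 (SE 0.235, limma adjusted p = 0.00255) in Apc/Tgif tumours, which did not overlap wild-type colon, with 0.77 (limma adjusted p = 0.0705) in females alone, and its log2 fold change in Apc tumours was 0.41 (SE 0.235, limma adjusted p = 0.159). Slc31a2 (CTR2; chromosome 4, 62262562 to 62298411, plus strand), its intracellular relative, had values of 524 to 739.6 with a median of 623 in Apc/Tgif tumours and 375 to 504 with a median of 427 in Apc tumours, against 453, 418, 539, 612 and 518 in wild-type colon. Every Apc/Tgif tumour exceeded every Apc tumour, which 2.30% of all genes did, while 1.77% were lower without overlap and 0 members were, and wild-type colon lay across both. The tumours differed by 0.56 (SE 0.107, limma adjusted p = 0.00136), and in males alone by 0.44 (limma adjusted p = 0.0535). Against wild-type colon the log2 fold change of Slc31a2 was 0.29 (SE 0.118, limma adjusted p = 0.0449) in Apc/Tgif tumours and -0.26 (SE 0.118, limma adjusted p = 0.0713) in Apc tumours. The Apc/Tgif call was kept in 13 of 32 alternatives and lost without WT 1, WT 2, WT 5, Apc 1, Apc 2, Apc 3, Apc 5, Apc 7, Apc/Tgif 1, Apc/Tgif 2, Apc/Tgif 3, Apc/Tgif 5 or Apc/Tgif 7 (limma adjusted p = 0.0502 to 0.119). The copper pumps Atp7a and Atp7b passed in no comparison over both sexes. Atp7a averaged 3364 ± 1073 in Apc/Tgif tumours and 3257 ± 1073 in Apc tumours, against 3022 ± 721 in wild-type colon, and Atp7b averaged 73.8 ± 70.2 in Apc/Tgif tumours and 73.1 ± 32.1 in Apc tumours, against 101 ± 73.8 in wild-type colon.

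Slc41a1 (chromosome 1, 131827493 to 131848865, plus strand), a magnesium transporter of the cell surface, had values of 2094 to 4459.8 with a median of 3207 in Apc/Tgif tumours and 1719 to 4344 with a median of 3694 in Apc tumours, against 1059.8, 1109.8, 952, 887 and 1017 in wild-type colon. Both tumour groups lay above every wild-type library. Slc41a1 rose by 1.68 (SE 0.211, limma adjusted p = 1.97e-06) in Apc/Tgif tumours and 1.71 (SE 0.211, limma adjusted p = 2.16e-06) in Apc tumours, and the 95% interval of the difference between the tumours was -0.43 to 0.37. Its relative Slc41a2 (chromosome 10, 83230848 to 83337882, minus strand) had values of 228 to 399 with a median of 289.9 in Apc/Tgif tumours and 365 to 772 with a median of 495 in Apc tumours, against 873, 653, 520.2, 536 and 877 in wild-type colon. Here Apc/Tgif tumours lay wholly below wild-type colon and Apc tumours overlapped both groups. Slc41a2 fell by 1.16 (SE 0.202, limma adjusted p = 8.66e-05) in Apc/Tgif tumours against wild-type colon and had a log2 fold change of -0.41 (SE 0.202, limma adjusted p = 0.103) in Apc tumours. Apc/Tgif tumours were lower than Apc tumours, with a log2 fold change of -0.75 (SE 0.183, limma adjusted p = 0.00794), and in females alone the value was -0.46 (limma adjusted p = 0.26). Slc41a3, a mitochondrial relative, averaged 107 ± 36.8 in Apc/Tgif tumours and 129 ± 55.0 in Apc tumours, against 125 ± 16.5 in wild-type colon and passed in no comparison.

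Between the tumours, then, the lower members were Slc30a10, Slc39a5, Heph, Slc39a10, Slc41a2 and Slc39a6, and the higher one was Slc31a2. With a log2 fold change of at least 1 there were 3 lower members (4.27% of all genes) and 0 higher ones (2.34% of all genes). Summed goblet cell markers were 17319 to 71298 in Apc/Tgif tumours and 65265 to 274565 in Apc tumours, against 501013 to 881181 in wild-type colon. Of the 10 colonocyte markers 6 were lower in Apc/Tgif than in Apc tumours, and of the 10 goblet cell markers 8 were. The part of these markers in the lower Slc30a10, Slc39a5 and Heph was not tested.

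The difference between Apc/Tgif and Apc tumours was not the same in males and females in 7 members, by a test of the male effect minus the female effect, while 23.6% of all genes did so. For Atp7a (chromosome X, 106027276 to 106124926, plus strand), which pumps copper out of cells, males had 2894 to 4503 in Apc/Tgif tumours and 2105 to 4015 in Apc tumours, and females had 2109 to 2558 in Apc/Tgif tumours and 3067 to 4644 in Apc tumours. The female groups did not overlap and the male groups did. The male minus female difference in log2 fold change was 1.36 (SE 0.305, limma adjusted p = 0.00531), and it was 1.31 (SE 0.337, limma adjusted p = 0.0428) when Apc/Tgif tumours were set against wild-type colon. Females alone gave -0.73 between the tumours (limma adjusted p = 0.0194), where the fit over both sexes gave 0.05. Here and below, the share of all genes whose tumour groups did not overlap within a sex was not counted.

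Slc30a6, a zinc transporter of the Golgi, had 599 to 861 in Apc/Tgif and 566 to 664 in Apc tumours of males. In females it had 428 to 528 in Apc/Tgif and 734 to 794 in Apc tumours, without overlap, and the sex difference was 0.89 (SE 0.193, limma adjusted p = 0.00448). Slc39a14 had 2842 to 3789.9 in Apc/Tgif tumours and 1542 to 1896 in Apc tumours of females, again without overlap, while the males overlapped (1633 to 2010.3 and 1438 to 2003 in the same order). Its sex difference was -0.83 (SE 0.222, limma adjusted p = 0.0137). These 3 differences between the tumours were called in all 28 alternatives that have both sexes.

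Mt1 in males had 2159.6 to 4462 in Apc/Tgif tumours and 6270.4 to 10656 in Apc tumours, without overlap, and in females 3236 to 13765 in Apc/Tgif tumours and 2671 to 6126 in Apc tumours. Its sex difference was -1.97 (SE 0.628, limma adjusted p = 0.0319), and without Apc/Tgif 2 it was -1.34 with a limma adjusted p of 0.0866. Tfrc differed between the sexes by -1.06 (SE 0.342, limma adjusted p = 0.0342), Atp7b, a copper pump best known from liver, by -2.99 (SE 0.930, limma adjusted p = 0.0286) and Slc39a10 by 1.33 (SE 0.423, limma adjusted p = 0.0317). These 4 calls did not hold throughout. That of Mt1 was lost without Apc 2, Apc 3, Apc 4, Apc 7, Apc/Tgif 2, Apc/Tgif 4 or Apc/Tgif 6 (limma adjusted p = 0.0506 to 0.0948). That of Tfrc was lost without Apc 1, Apc 2, Apc 3, Apc 4, Apc 7, Apc/Tgif 1, Apc/Tgif 3, Apc/Tgif 5, Apc/Tgif 6 or Apc/Tgif 7 (limma adjusted p = 0.0503 to 0.0881), that of Atp7b without Apc 2, Apc 3, Apc 6, Apc/Tgif 1, Apc/Tgif 2 or Apc/Tgif 6 (limma adjusted p = 0.0509 to 0.0674) and that of Slc39a10 without Apc 2, Apc 3, Apc 4, Apc 6, Apc/Tgif 2 or Apc/Tgif 4 (limma adjusted p = 0.0521 to 0.0887). Against wild-type colon Slc30a7, also of the Golgi, differed by 0.55 (SE 0.144, limma adjusted p = 0.0462) in Apc/Tgif tumours, with Atp7a 1 of 2 members called where 3.40% of all genes were. Those 2 calls were kept in 14 of 28 alternatives for Atp7a and 9 of 28 for Slc30a7. Both were lost without WT 1, WT 3, WT 4, WT 5, Apc 3, Apc 5, Apc/Tgif 2, Apc/Tgif 3, Apc/Tgif 4, Apc/Tgif 6 or Apc/Tgif 7. For Apc tumours against wild-type colon 0 members and 0.0108% of all genes were called, and at an unadjusted p under 0.05 3 members and 11.6% of all genes were. Each sex had 3 or 4 tumours in a group and 2 or 3 wild-type colons.

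**Figure D5:**
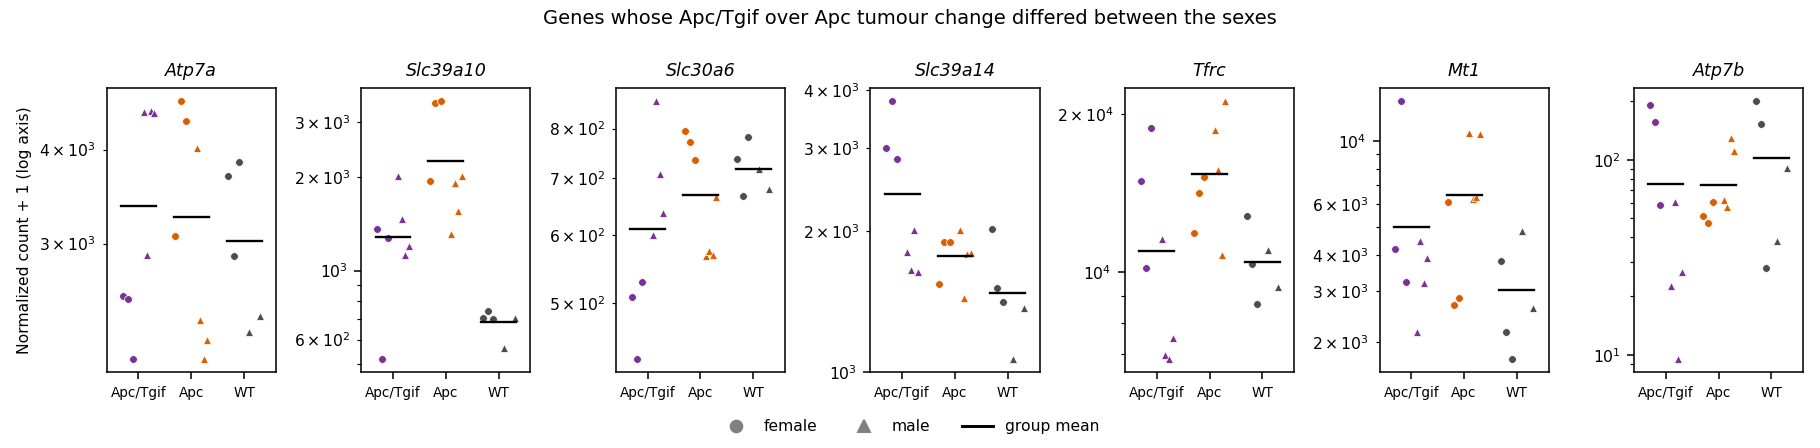
Normalized count plus 1 (log axis, own range in each panel) of the 7 metal genes whose Apc/Tgif over Apc tumour change differed between females (circles) and males (triangles), for Apc/Tgif tumours, Apc tumours and wild-type colon, with a line at the group mean. From left to right the male minus female difference in log2 fold change goes down, with 1.36 for Atp7a and -2.99 for Atp7b at the ends. Female Apc/Tgif tumours lie below female Apc tumours for Atp7a, Slc39a10 and Slc30a6 and above them for Slc39a14.

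Further genes of metal handling were taken from lists of iron, copper, zinc, manganese and magnesium genes, 69 in all, of which 67 were in the table and 62 tested. In Apc/Tgif tumours 18 of the 62 rose and 19 fell, and in Apc tumours 17 rose and 15 fell, against wild-type colon. Between the tumours 2 were higher and 9 lower in the Apc/Tgif ones. Over all genes the shares called higher and lower were 24.8% and 25.5%, 23.9% and 25.2%, and 7.88% and 8.76% in the same order. The counts by list below stand beside these same shares. The lists' median log2 fold changes were 0.03, 0.09 and -0.11 in that order of comparisons, against 0.00, -0.01 and -0.01 over all genes.

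Of 26 iron genes, 11 rose and 3 fell in Apc/Tgif tumours and 10 rose and 4 fell in Apc tumours. Cp (ceruloplasmin), a ferroxidase like Heph, averaged 3064 ± 1118 in Apc/Tgif tumours and 5362 ± 1899 in Apc tumours, against 442 ± 101 in wild-type colon (mean ± SD) and rose by 2.83 (SE 0.221, limma adjusted p = 4.94e-09) in Apc/Tgif tumours and 3.63 (SE 0.221, limma adjusted p = 2.63e-10) in Apc tumours. Lcn2, which captures bacterial iron carriers, averaged 4592 ± 2893 in Apc/Tgif tumours and 8067 ± 5453 in Apc tumours, against 46.7 ± 22.1 in wild-type colon and rose by 6.54 (SE 0.610, limma adjusted p = 4.90e-08) and 7.18 (SE 0.610, limma adjusted p = 2.34e-08) in the same order. In the Steap family of metal reductases Steap3 alone fell. Steap1 and Steap2, named here after their values were seen, were called higher in both tumour groups, as was Steap4. Steap4 rose by 2.50 (SE 0.247, limma adjusted p = 9.79e-08) and 3.24 (SE 0.247, limma adjusted p = 5.13e-09), and Steap3 changed by -2.93 (SE 0.286, limma adjusted p = 7.94e-08) and -2.01 (SE 0.286, limma adjusted p = 1.08e-05).

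Of 8 zinc genes, 4 rose and 3 fell in Apc/Tgif tumours and 4 rose and 2 fell in Apc tumours. Those that rose in each were Mt3, Mt4 and the calprotectin subunits S100a8 and S100a9, which bind zinc and are abundant in neutrophils. S100a8 averaged 1493 ± 1768 in Apc/Tgif tumours and 2694 ± 916 in Apc tumours, against 3.38 ± 4.77 in wild-type colon, and S100a9 averaged 1611 ± 1595 in Apc/Tgif tumours and 3421 ± 938 in Apc tumours, against 4.55 ± 4.98 in wild-type colon. Mtf1, the zinc-sensing factor, named here after its values were seen, changed by -0.60 (SE 0.142, limma adjusted p = 0.00163) and -0.62 (SE 0.142, limma adjusted p = 0.00131) against wild-type colon, and by 0.02 (SE 0.128, limma adjusted p = 0.936) between the tumours. Of 11 copper genes, 4 fell in each tumour group, and the 2 that rose were again Mt3 and Mt4. Of 14 magnesium genes, 1 rose and 6 fell in Apc/Tgif tumours and 1 rose and 3 fell in Apc tumours. Cnnm4, which moves magnesium out of the basolateral side of colonocytes, averaged 3359 ± 1043 in Apc/Tgif tumours and 5204 ± 2265 in Apc tumours, against 20139.6 ± 1015 in wild-type colon and changed by -2.75 (SE 0.285, limma adjusted p = 1.79e-07) and -2.16 (SE 0.285, limma adjusted p = 4.47e-06). Trpm6, the luminal magnesium channel, averaged 328 ± 269 in Apc/Tgif tumours and 616 ± 369 in Apc tumours, against 5600.0 ± 1576 in wild-type colon and changed by -4.50 (SE 0.461, limma adjusted p = 1.66e-07) and -3.39 (SE 0.461, limma adjusted p = 7.03e-06). Nipal2, of a magnesium transporter family, rose by 1.67 (SE 0.160, limma adjusted p = 6.48e-08) and 0.90 (SE 0.160, limma adjusted p = 0.000129), and Cnnm1 changed by -2.37 (SE 0.480, limma adjusted p = 0.000389) and -1.80 (SE 0.480, limma adjusted p = 0.00433) at low levels. Atp2c2, a Golgi pump for calcium and manganese, averaged 575 ± 169 in Apc/Tgif tumours and 1144 ± 875 in Apc tumours, against 2812 ± 669 in wild-type colon and changed by -2.37 (SE 0.336, limma adjusted p = 8.31e-06) and -1.62 (SE 0.336, limma adjusted p = 0.000577).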

How the data were processed

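RNA from 19 mouse colon samples was made into poly-A libraries and read from 1 end over 75 bases, per the labels' protocols. The deposited table holds normalized counts (a signal scaled between libraries) per gene, and the submitters' processing notes name Salmon, DESeq2 and GRCm38/mm10 without versions. No source used here says whether the counting was stranded. A median of 83.9% of low values lay within 0.1 of a whole multiple of 1 read, too few to recover whole reads, so no count model was used. Values were tested as log2(normalized count + 1), a scale that understates changes of low genes, with limma 3.58.1 in R 4.3.3, with intensity trend and robust moderation, over all 19 libraries with terms for group and sex. Genes had to reach 10 in at least 5 libraries. P-values are two-sided and Benjamini-Hochberg adjusted over 18445 genes, with calls at 0.05. The sex difference is the male minus the female fold change from 1 mean per group and sex. Fits were tested on simulated data. The samples come from different mice per the series' design text.

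Members called with an absolute log2 fold change of at least 1, and Mt1, Mt2, Fth1, Ftl1, Tfrc and Slc40a1, are given with each wild-type value and the lowest, median and highest tumour value, and other members by range or mean. From each further list up to 3 called genes with such a change and the smallest p in each comparison with wild-type colon are named. Members and lists were chosen with earlier results of these data known. Alternatives covered scaling, pseudocount, filter, sex term, moderation, library weights, the groups fitted, each sex alone and each library left out. Positions are GENCODE vM21 on GRCm38.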

Additional observations from a re-analysis of the deposited data

Results flagged for a closer look

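In 5 of 117 groups of values on the log2 scale a single library stood apart from the rest, and chance flags about 1 in 20 groups. Apc/Tgif 2 was the highest of its group for Fth1 (75500 normalized counts, next 47920) and for Mt1 (13770, next 4462). Apc/Tgif 5 was the lowest of its group for Slc30a2 (2076, next 4294), and in this library Rn45s, a ribosomal RNA gene, took 9.35% of the total. Rn45s also took 3.50% in WT 4 and 2.93% in WT 2, where the median over all libraries was 0.26%. Apc 6 was the highest for Slc39a2 (249.3, next 70.24), and WT 4 was the lowest for Slc39a10 (563.4, next 696.8).

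The fold change differed between males and females, tested as the male minus the female log2 fold change with limma, in 2 members when Apc/Tgif tumours were set against wild-type colon. The difference was 1.31 for Atp7a (adjusted p = 0.0428) and 0.55 for Slc30a7 (adjusted p = 0.0462). For Apc/Tgif against Apc tumours it was 1.36 for Atp7a (limma adjusted p = 0.00531), 0.89 for Slc30a6 (0.00448), 1.33 for Slc39a10 (0.0317), -0.83 for Slc39a14 (0.0137), -1.06 for Tfrc (0.0342), -1.97 for Mt1 (0.0319) and -2.99 for Atp7b (0.0286). Over all genes 3.40% and 23.6% were called in the same order of comparisons. The calls against wild-type colon, and those of Slc39a10, Tfrc, Mt1 and Atp7b between the tumours, were lost without some single libraries.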

How the results depend on the processing

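Over 32 alternatives (28 for sex differences), 3716 of 3996 values of single members kept their direction and side of the threshold, 172 were no longer past it, 106 passed it newly and 2 reversed. Among 2228 values past it in neither fit, 99 differed in sign. Both reversals were Atp7a in females alone, at -0.53 against wild-type colon and -0.73 against Apc tumours in Apc/Tgif tumours. With a quality weight per library, members called lower numbered 15 and 11 in Apc/Tgif and Apc tumours against wild-type colon, where 29.7% and 30.7% of all genes were, and 3 were higher and 10 lower between the tumours (11.1% and 11.9% of all genes). In females alone 6 members were higher in Apc/Tgif tumours than in wild-type colon (21.3% of all genes), and between the tumours 3 members and 2230 genes (12.1%) were higher. In males alone 0 members were higher between the tumours (8.37% of all genes), and 3039 genes were lower in Apc tumours than in wild-type colon. With 1 mean per group and sex, 3 members were higher between the tumours (11.0% of all genes). Without single libraries that count of members was 1 to 2, beside 1191 to 1644 of all genes. Members with a sex difference against wild-type colon in Apc/Tgif tumours numbered 0 with equal totals, with no filter or without trend and robust moderation. Of all genes tested 2.85%, 2.10% and 2.29% had one under these settings. Such members numbered 1 with quantile normalization or only the groups compared (3.74% and 2.05% of all genes) and 5 with quality weights (19.8%). Without single libraries they numbered 0 to 3, with 0.0271% of all genes without WT 4 and 9.76% without Apc/Tgif 5. With quality weights they numbered 2 for Apc tumours against wild-type colon and 17 between the tumours (6.96% and 42.4% of all genes). Between the tumours single omissions gave 3 to 8, with 3 without Apc 2 or Apc 3 (14.8% and 15.8% of all genes). Equal totals moved the median of all genes by 0.15 in Apc/Tgif and 0.20 in Apc tumours, both set against wild-type colon. The causes were not tested. Members near a few counts, such as Slc30a10 in tumours, are limited by depth. No paired analysis was possible because the labels give the groups no shared replicate numbers.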
